A study of Rattus norvegicus with 8 samples.

Results

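Non-fibrillar collagens other than type IV were examined in the outflow veins of rat arteriovenous fistulas (AVFs). The genes were taken by name: 4 chains of type VI collagen (Col6a1, Col6a2, Col6a3 and Col6a6), the related Col28a1, the type VIII chain Col8a1, the FACIT collagens Col12a1 and Col14a1, and the multiplexins Col15a1 and Col18a1. The names of 9 of these 10 were found among the 32623 listed genes. Col6a3 was not analysed here. All 9 had a base mean (the mean of scaled counts over the 8 libraries) of at least 100, and so were among the 11682 genes tested.

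RNA was sequenced from 8 Sprague Dawley rats of both sexes, whose ages are not given in the sources used here. In every rat the epigastric vein was joined to the femoral artery, a bilayer scaffold of electrospun PLA and PLGA nanofibers was wrapped around the vein at the end of surgery, and the vein was collected after 21 days. The BAPN group (3 females and 1 male) had scaffolds loaded with β-aminopropionitrile, an irreversible inhibitor of the lysyl oxidases (LOX) that crosslink collagen and elastin. The vehicle group (2 females and 2 males) had scaffolds without the drug, so the comparison concerns the drug and not the wrap. No vein without a scaffold was analysed here. Whole veins were used, and in such bulk RNA fewer cells of a type and less RNA per cell cannot be told apart.

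Type VI collagen forms beaded microfilaments next to cells and basement membranes. Its α1 and α2 chains join with a longer chain, α3 in most tissues, and α4, α5 or α6 can take the place of α3. Type XXVIII collagen resembles type VI and is best known from peripheral nerve. Type VIII collagen is a short-chain network collagen made by vascular cells during vessel remodeling. FACIT collagens do not form fibrils but sit on the surface of fibrils of types I and III, and the multiplexins XV and XVIII are basement membrane proteoglycans whose carboxyl-terminal ends are released as restin and endostatin.

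BAPN libraries held 45039451 to 52241007 counts and vehicle libraries 19548203 to 22442050. Depth therefore separated the groups, and the treatment cannot be told apart from any difference in library preparation or sequencing between them. Levels are given as CPM, the count relative to the TMM-scaled library total, with 4 rats per group. They are not divided by gene length, so a higher CPM of one gene than of another is no measure of more transcripts. Sums over a list are weighted by its genes with the most reads. Log2 fold changes, negative where BAPN was lower, are from the edgeR quasi-likelihood test, with the standard error (SE) from limma-voom and the Benjamini-Hochberg FDR over all tested genes. The exact two-sided permutation test over rats cannot give a p below 0.0286.

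All 9 collagens had a log2 fold change below 0, the direction of 48.4% of tested genes. edgeR called 2 of them lower at an FDR below 0.05, Col6a6 and Col28a1, and none higher. Over all tested genes 9.25% were called lower and 7.50% higher. For the same 2 collagens the groups did not overlap, with all BAPN rats lowest, as for 11.9% of tested genes. The median log2 fold change of the 9 was -1.27, against 0.02 over all tested genes. DESeq2 called 6 of the 9 lower (Col6a1, Col6a2, Col6a6, Col28a1, Col14a1 and Col15a1). It called more genes throughout, 27.4% of tested genes and 15.1% in the lower direction.

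**Figure D1:**
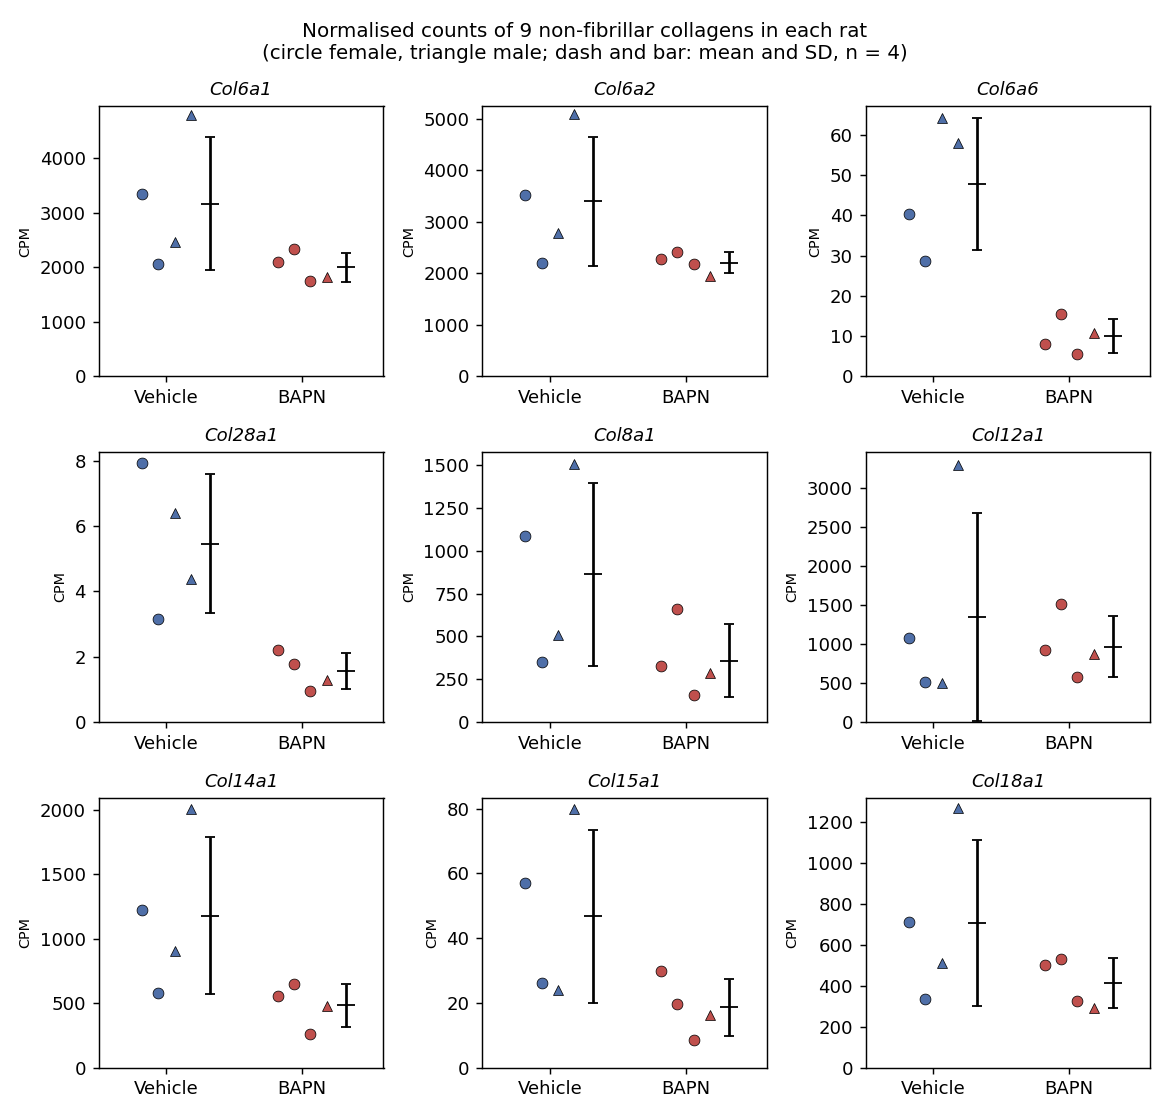
Normalised count (CPM, linear axis from 0) of each collagen in each rat, with circles for females, triangles for males, and a dash and bar for the mean and SD of 4 rats. The BAPN and vehicle rats were apart for Col6a6 and Col28a1, and overlapped for the other 7 genes, in all of which the highest vehicle value was that of Vehicle 4.

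The 250 bases before the RefSeq start of 2 type VI genes are shown because the ratio of their reads within a rat separated the groups. Col6a1 encodes the shared α1 chain and Col6a6 the α6 chain that can stand in for α3. Both are from RefSeq on assembly GRCr8, 5′ to 3′ on the strand of the gene, with capitals for matches to 6 motifs searched on both strands. The Col6a1 window is chr20:11905440-11905689 on the plus strand, and the Col6a6 window is chr8:115352162-115352411 on the minus strand.
Col6a1: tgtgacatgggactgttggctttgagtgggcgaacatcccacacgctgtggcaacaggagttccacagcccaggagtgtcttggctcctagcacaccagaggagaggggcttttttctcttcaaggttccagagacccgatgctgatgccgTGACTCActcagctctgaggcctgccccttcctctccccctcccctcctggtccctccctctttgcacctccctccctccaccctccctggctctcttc
Col6a6: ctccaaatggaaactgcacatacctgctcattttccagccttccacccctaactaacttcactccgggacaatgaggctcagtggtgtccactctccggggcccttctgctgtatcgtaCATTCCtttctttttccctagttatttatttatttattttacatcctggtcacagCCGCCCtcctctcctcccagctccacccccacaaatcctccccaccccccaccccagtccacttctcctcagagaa

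The motifs included the TATA box with the letters TATAAA, the CCAAT box and the GC box with the letters GGGCGG. The others were the AP-1 motif, which reads TGANTCA, the E-box, which reads CACGTG, and the TEAD motif, which reads GGAATG. No 2 matches overlapped in these windows. The Col6a1 window held 1 match, to the AP-1 motif, 99 to 93 bases before the start, and 6.34% of all 33469 windows of this length held that motif. The Col6a6 window held a GC box on the opposite strand, 76 to 71 bases before the start, and a TEAD match on the opposite strand, 131 to 126 bases before it. GC boxes were present in 30.5% and TEAD matches in 12.1% of all windows. In Col6a1, 60% of the 250 bases were G or C, in Col6a6 51.6%, and the median of all windows was 51.2%. The RefSeq table held windows for 7 of the 10 genes, 4 of them at the outermost start of the gene. The Col18a1 window held 3 GC boxes and the Col15a1 window none of the 6 motifs. Windows of Col6a2, Col12a1 and Col14a1 were not used here. The genome build of the count files is not given in the sources used here, so these positions belong to RefSeq alone.

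The 2 core chains of type VI collagen had similar log2 fold changes, -0.66 and -0.62, and neither passed the threshold in edgeR. Col6a1 (ENSRNOG00000001249) was at 2102, 2330, 1753 and 1827 CPM in BAPN 1 to 4 and at 3341, 2054, 2469 and 4799 CPM in Vehicle 1 to 4. The groups overlapped, since Vehicle 2 was below BAPN 1 and BAPN 2. The BAPN and vehicle means were 2003 ± 265 and 3166 ± 1214 CPM (SD, n = 4), and the log2 fold change of -0.66 (SE 0.27) was called by DESeq2 (FDR 0.0386) but not by edgeR (FDR 0.114). Col6a2 (ENSRNOG00000001254) was at 2283, 2418, 2189 and 1943 CPM with BAPN and at 3511, 2207, 2775 and 5083 CPM with vehicle. For this gene too, Vehicle 4 was the highest rat and Vehicle 2 lay among the BAPN rats. Its log2 fold change was -0.62 (SE 0.26, FDR 0.119 in edgeR and 0.0402 in DESeq2). The BAPN rats were close together for both core chains, with an SD of 13.2% and 9.06% of the mean, against 38.3% and 36.7% in the vehicle group. Without Vehicle 4 the log2 fold changes were -0.39 for Col6a1 and -0.36 for Col6a2.

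Col6a6 (ENSRNOG00000023007), the α6 chain, had the largest change of the 9 and stood 19th among the 11682 tested genes from the most lowered. It was at 8.09, 15.4, 5.51 and 10.8 CPM in BAPN 1 to 4 and at 40.2, 28.6, 64.1 and 58.0 CPM in Vehicle 1 to 4. The highest BAPN rat was thus well below the lowest vehicle rat. The means were 9.97 ± 4.24 and 47.7 ± 16.3 CPM (SD, n = 4), a log2 fold change of -2.26 (SE 0.35, edgeR FDR 0.00922, exact permutation p = 0.0286), or 4.79 times less RNA. The vehicle males were above the vehicle females, and the single BAPN male was within the range of the BAPN females. A difference of the treatment effect between sexes could hardly be tested with 1 BAPN male: edgeR called the treatment-by-sex term for 0 of 11682 genes (1442 at an unadjusted p below 0.05), and for the 9 collagens the lowest unadjusted p was 0.114, for Col18a1. The call of Col6a6 was kept in all 8 fits that left out 1 rat, and with sex as a covariate (FDR 0.0213). Among females alone, 3 against 2, its log2 fold change was -1.83 (edgeR FDR 0.0871).

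Col28a1 (ENSRNOG00000033618), whose von Willebrand factor A domains relate it to type VI chains, was also lower with BAPN. It was at 2.21, 1.79, 0.964 and 1.29 CPM in BAPN 1 to 4 and at 7.92, 3.15, 6.41 and 4.38 CPM in Vehicle 1 to 4. The groups did not overlap. These levels rest on 42 to 107 reads per BAPN library and 64 to 170 reads per vehicle library. The means were 1.56 ± 0.548 and 5.46 ± 2.12 CPM (SD, n = 4), a log2 fold change of -1.80 (SE 0.39, edgeR FDR 0.019, exact permutation p = 0.0286). Without Vehicle 1, the highest rat, the log2 fold change was -1.57 and the FDR 0.0579. Among females alone it was -1.74 (edgeR FDR 0.12).

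Schwann cell and nerve markers were read beside Col28a1. Of 9 such markers 8 were tested, and 1 was called, Ngfr, a neurotrophin receptor, which was lower with BAPN (mean 5.02 against 10.04 CPM, edgeR FDR 0.0476), beside 9.25% of all tested genes called lower. The summed level of the list ran from 114 to 329 CPM with BAPN and from 122 to 254.8 CPM with vehicle, so the groups overlapped. The part of nerve tissue in the change of Col28a1 was not tested.

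The network collagen gene Col8a1 (ENSRNOG00000039668) was at 329, 658, 158 and 287 CPM in BAPN 1 to 4 and at 1089, 352, 507 and 1510 CPM in Vehicle 1 to 4. BAPN 2 was above both Vehicle 2 and Vehicle 3, and the other 3 BAPN rats were below every vehicle rat. The log2 fold change was -1.27 (SE 0.52, FDR 0.117 in edgeR and 0.106 in DESeq2, exact permutation p = 0.143). Its spread was wide in both groups, with an SD of 59.5% of the mean in BAPN and 61.8% in vehicle rats. Without Vehicle 4 the log2 fold change was -0.86.

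Of the 2 FACIT collagens, Col14a1 (ENSRNOG00000026415), a collagen of fibril surfaces in dense connective tissue, was at 556, 650, 259 and 478 CPM with BAPN and at 1220, 580, 909 and 2009 CPM with vehicle. Only BAPN 2 was above the lowest vehicle rat. The log2 fold change was -1.28 (SE 0.40), which missed the threshold in edgeR (FDR 0.0542, exact permutation p = 0.0571) and passed it in DESeq2 (FDR 0.00507). edgeR called Col14a1 without Vehicle 2 (FDR 0.0259), and without Vehicle 4 its log2 fold change was -0.89 (FDR 0.111).

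Col12a1 (ENSRNOG00000058470), the other FACIT, which is found in tissues under tension, had groups that overlapped throughout. It was at 920, 1515, 573 and 869 CPM with BAPN and at 1084, 511, 498 and 3304 CPM with vehicle. Vehicle 4 had 3.05 times the level of the next vehicle rat, while Vehicle 2 and Vehicle 3 were below all 4 BAPN rats. The log2 fold change over the 8 rats was -0.48 (SE 0.60, edgeR FDR 0.589, DESeq2 FDR 0.667). It turned to 0.47 without Vehicle 4 (FDR 0.418) and to 0.33 among females alone (FDR 0.688), so its direction rested on that rat. The SD of the vehicle group was 98.7% of its mean, the largest of the 9 genes.

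Among the multiplexins, Col15a1 (ENSRNOG00000060381) was at 30.0, 19.6, 8.66 and 16.3 CPM in BAPN 1 to 4 and at 56.9, 26.1, 24.1 and 79.9 CPM in Vehicle 1 to 4. BAPN 1 was above Vehicle 2 and Vehicle 3, and the other BAPN rats were below every vehicle rat. The log2 fold change was -1.33 (SE 0.46, FDR 0.072 in edgeR and 0.015 in DESeq2, exact permutation p = 0.0857). Col18a1 (ENSRNOG00000001229), the source of endostatin, was at 504.2, 533, 325 and 292 CPM with BAPN and at 713, 337, 513 and 1272 CPM with vehicle. Its groups overlapped more, and its log2 fold change of -0.78 (SE 0.39) was called neither by edgeR (FDR 0.18) nor by DESeq2 (FDR 0.101). Without Vehicle 4 the values were -0.94 for Col15a1 and -0.33 for Col18a1.

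Across genes the same rats tended to be high or low. Vehicle 4 was the highest vehicle rat for 7 of the 9 genes, and Vehicle 2 was the lowest for 7. In the BAPN group, BAPN 2 was the highest for 7 and BAPN 3 the lowest for 7. Col6a6 and Col28a1 were the exceptions at the top of the vehicle group, with Vehicle 3 and Vehicle 1 as their highest rats. Both were also the genes whose log2 fold change moved least without Vehicle 4, to -2.15 and -1.90.

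**Figure D2:**
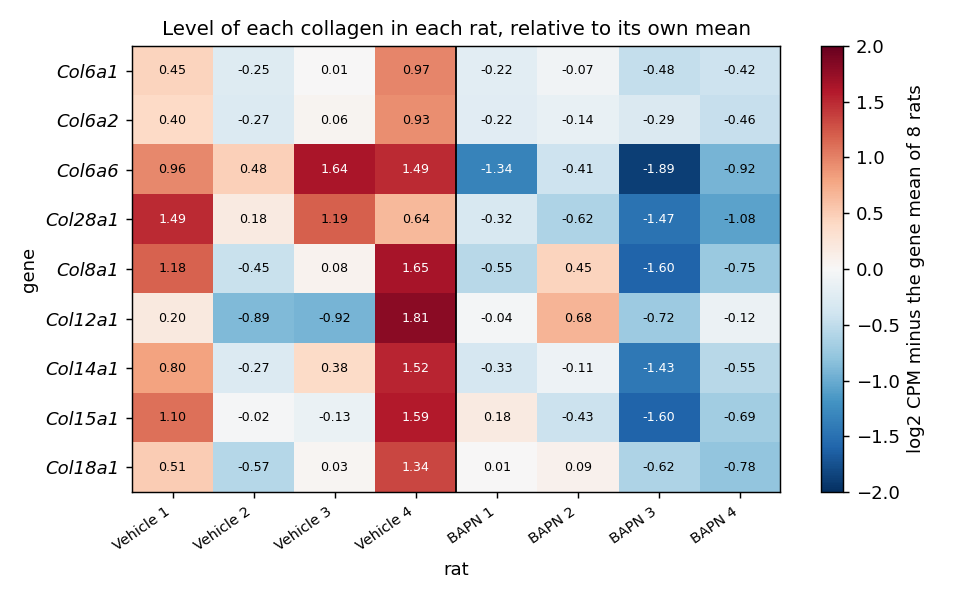
Log2 CPM of each collagen in each rat minus the mean of that gene over the 8 rats, with vehicle rats left of the line and BAPN rats right of it. Vehicle 4 was 0.64 to 1.81 above the gene mean in all 9 genes, BAPN 3 was below it in all 9, and Vehicle 2 and Vehicle 3 were above the mean of Col6a6 and Col28a1 but below that of Col12a1.

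**Figure D3:**
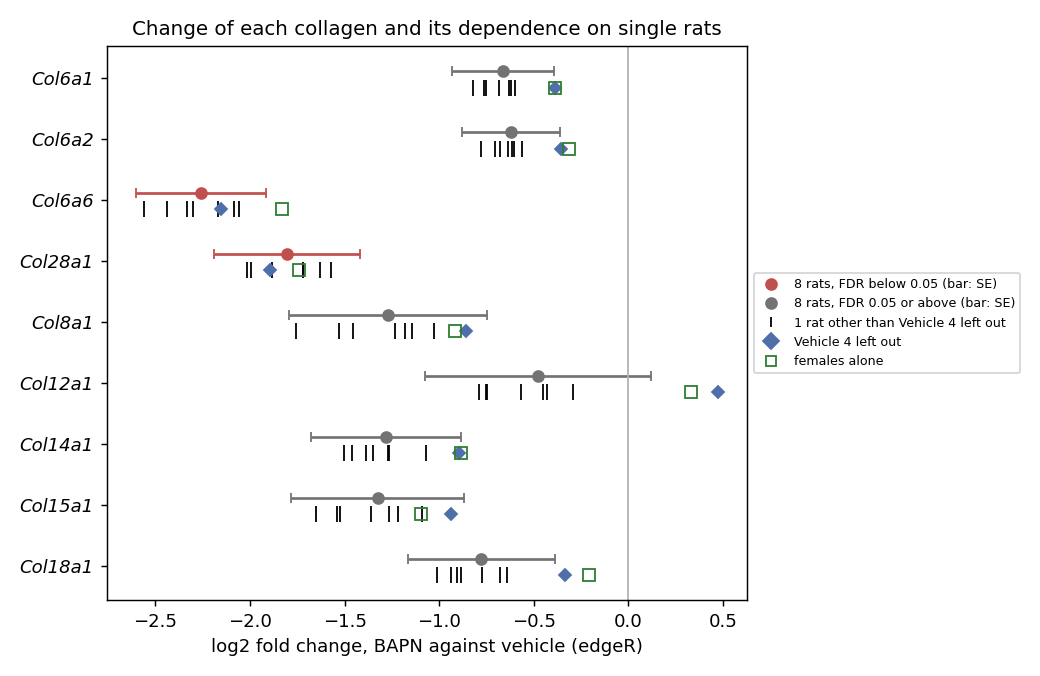
Log2 fold change of each collagen over the 8 rats (dots, bar for the standard error, red where the edgeR FDR was below 0.05), with the values after leaving out 1 rat (ticks, blue diamonds for Vehicle 4) and among females alone (open squares). Col6a6 stayed between -2.56 and -2.06 and Col28a1 between -2.02 and -1.57 when 1 rat was left out, whereas Col12a1 ran from -0.79 to 0.47.

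Ratios of 2 collagens within a library do not depend on scaling or library size, and 5 were computed as a description. The ratio of Col6a1 to Col6a2 reads hardly varied. Per 1000 Col6a2 reads there were 906 ± 72.4 Col6a1 reads with BAPN and 929 ± 27.6 with vehicle (SD, n = 4), and the lowest rat was BAPN 3 with 801. The 2 core chains therefore kept nearly the same ratio in all 8 rats.

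Col6a6 reads were fewer with BAPN relative to Col6a1 reads as well as relative to the library. Per 1000 Col6a1 reads there were 3.85, 6.62, 3.14 and 5.93 Col6a6 reads in BAPN 1 to 4, compared with 12.04, 13.9, 26.0 and 12.1 in Vehicle 1 to 4. The BAPN rats were all below the vehicle rats, and the mean log2 ratio differed by -1.70, or 3.25 times. With 1 rat left out the difference stayed between -1.87 and -1.44, and it was -1.59 among females alone. Col28a1 reads on this scale were 1.05, 0.767, 0.55 and 0.705 with BAPN and 2.37, 1.53, 2.60 and 0.912 with vehicle, a difference in mean log2 ratio of -1.20. Here the groups overlapped, because Vehicle 4 was below BAPN 1.

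The 2 FACIT genes had a ratio that separated the groups in the opposite direction. The log2 ratio of Col12a1 to Col14a1 reads was 0.73, 1.22, 1.14 and 0.86 with BAPN (rats 1 to 4) and -0.17, -0.19, -0.87 and 0.72 with vehicle. All BAPN rats were above all vehicle rats, although BAPN 1 and Vehicle 4 were separated by little. The mean difference was 1.11, with values between 0.87 and 1.40 when 1 rat was left out and 1.21 among females alone. The log2 ratio of Col15a1 to Col18a1 differed by -0.62 and the groups overlapped.

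**Figure D4:**
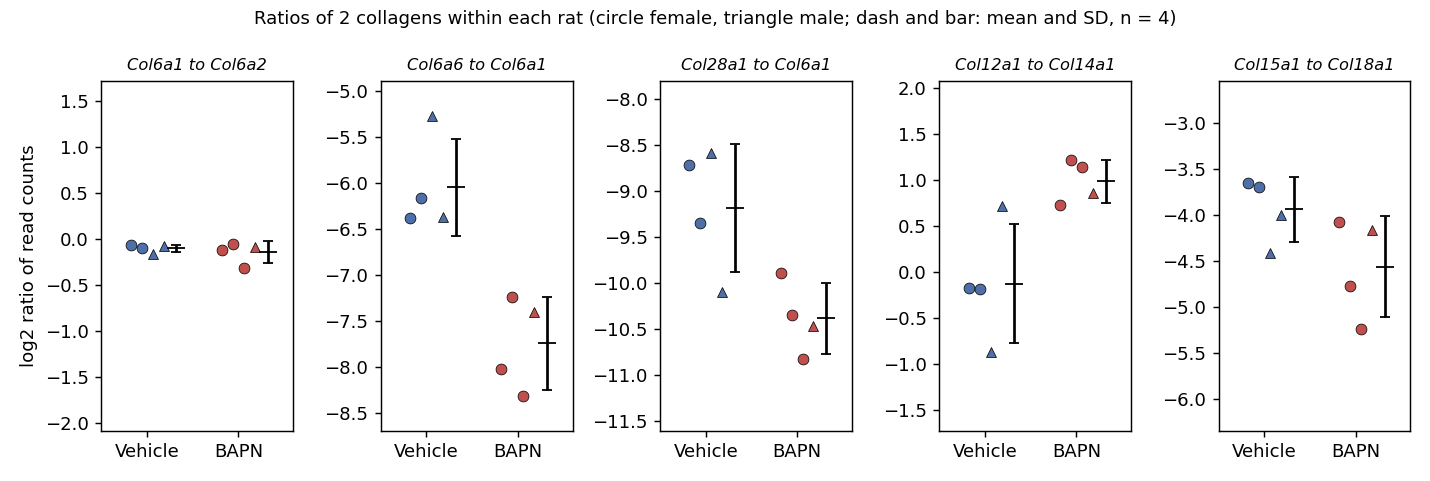
Log2 ratio of the read counts of 2 collagens in each rat, on axes of equal span, with circles for females, triangles for males, and a dash and bar for the mean and SD of 4 rats. The Col6a1 to Col6a2 ratio lay between -0.32 and -0.05 in all 8 rats, while Col6a6 to Col6a1 and Col12a1 to Col14a1 separated the groups, in opposite directions.

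For Col6a6 and Col28a1 the tested genes outside the 9 with the most similar pattern over the 8 rats were listed, by the root mean square difference of centred log2 CPM. Those nearest to Col6a6 were the ephrin receptor gene Epha4 (0.25), the hedgehog co-receptor gene Gas1 (0.28) and Gask1a (0.36). Nearest to Col28a1 were the claudin gene Cldn1 (0.21), the neurotrophin receptor gene Ntrk2 (0.24) and the Wnt inhibitor gene Apcdd1 (0.25). All 6 were called lower with BAPN, with log2 fold changes from -2.29 (Gask1a) to -1.48 (Ntrk2) and edgeR FDRs of at most 0.0212. Cldn1 and Ntrk2 lost the call without BAPN 3, BAPN 4 or Vehicle 1 (FDR 0.0522 to 0.0603), with log2 fold changes from -1.61 to -1.15. Among females alone Gas1 and Gask1a were called, and the other 4 were not (log2 fold changes from -1.85 to -1.48). Their similarity includes the difference between the groups, by which Col6a6 and Col28a1 themselves stand out.

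Other non-fibrillar collagens were read beside the 9. Of 18 listed, 17 were found and 6 had a base mean of at least 100. In edgeR none of the 6 was called, where 16.8% of all tested genes were called in either direction, none had an unadjusted p below 0.05, and DESeq2 called none. Their median log2 fold change was -0.20. The values were -0.68 for the FACIT Col16a1 (FDR 0.175), -0.56 for the α2 chain of type VIII, Col8a2 (0.465), -0.39 for the anchoring fibril collagen Col7a1 (0.551), -0.01 for Col20a1 (0.988) and -0.01 for the hemidesmosomal Col17a1 (0.981). Col8a2 was at 279 CPM in Vehicle 4 and at 44.7 to 83.7 CPM in the other vehicle rats, and leaving out that rat gave a log2 fold change of 0.29. Col23a1 had no reads in any library.

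Col6a5, the α5 chain of type VI and, like Col6a6, an alternative to α3, did not follow Col6a6. It was at 51.0, 7.01, 148 and 8.395 CPM in BAPN 1 to 4 and at 84.1, 19.1, 6.96 and 5.18 CPM in Vehicle 1 to 4. Each group held rats with levels near 7 CPM and rats far above. The log2 fold change was 0.90 (SE 1.25, edgeR FDR 0.581), and it was -0.38 without BAPN 3. Col6a4, the α4 chain, was between 0.443 and 1.68 CPM in every library and was not tested.

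Receptors of these collagens include the collagen-binding integrins, the discoidin domain receptors, and the type VI receptors Antxr1, Antxr2 and Cspg4. Of 16 listed, 15 were tested, 13 of them with a log2 fold change below 0, and 1 was called lower and none higher, where 9.25% of all tested genes were called lower. The median log2 fold change was -0.56. The called gene was Ddr2, a receptor tyrosine kinase activated by collagen. It was at 37.9, 34.0, 11.8 and 22.9 CPM with BAPN and at 88.0, 46.9, 66.9 and 112 CPM with vehicle, with no overlap. Its log2 fold change was -1.56 (SE 0.38, edgeR FDR 0.0261). The log2 fold change stayed between -1.78 and -1.31 when 1 rat was left out, but the call was lost with sex as a covariate (-1.51, FDR 0.0602), among females alone (-1.27, FDR 0.176) and without BAPN 4 (0.0635), Vehicle 1 (0.0692) or Vehicle 4 (0.0543). Itgb1, the shared β1 integrin subunit and the gene of this list with the highest mean CPM, had a log2 fold change of 0.16 (edgeR FDR 0.521).

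Matrix partners were taken as proteoglycans, matrilins, tenascin, fibulins and basement membrane or microfibril proteins that bind these collagens. Of 18 listed, 16 were tested, 14 of them with a log2 fold change below 0, and 3 were called lower and none higher, beside the same 9.25% of all tested genes, with a median of -0.67. Fbln1, a basement membrane and elastic fiber fibulin, had means of 141 ± 41.4 and 300.5 ± 67.1 CPM in BAPN and vehicle rats (SD, n = 4). Its log2 fold change was -1.09 (SE 0.23) at an edgeR FDR of 0.0194. Its groups did not overlap, and the call was lost without BAPN 3 (0.0557) or Vehicle 1 (0.0583). Mfap2, a microfibril-associated protein, changed by -1.17 on the log2 scale (SE 0.31, edgeR FDR 0.0353), and its groups overlapped.

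The third was Matn4, a matrilin that links type VI microfilaments to other matrix components. It was at 7.81, 10.8, 4.18 and 4.20 CPM with BAPN and at 16.4, 10.97, 16.1 and 62.6 CPM with vehicle. Its log2 fold change was -1.97 (SE 0.55) at an edgeR FDR of 0.0448. Vehicle 4 stood far above the rest, and without it the log2 fold change was -1.10 (FDR 0.0793). Mfap2 kept its call in 2 and Matn4 in 1 of the 8 fits that left out 1 rat. Both lost the call with sex as a covariate (log2 fold change -0.92, FDR 0.0787 for Mfap2 and -1.61, FDR 0.145 for Matn4). None of these 3 was called among females alone, where the log2 fold changes were -0.95 for Fbln1, -0.59 for Mfap2 and -0.85 for Matn4. Fn1, which encodes fibronectin and had the highest mean CPM of the list, had a log2 fold change of -0.06 (edgeR FDR 0.905).

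**Figure D5:**
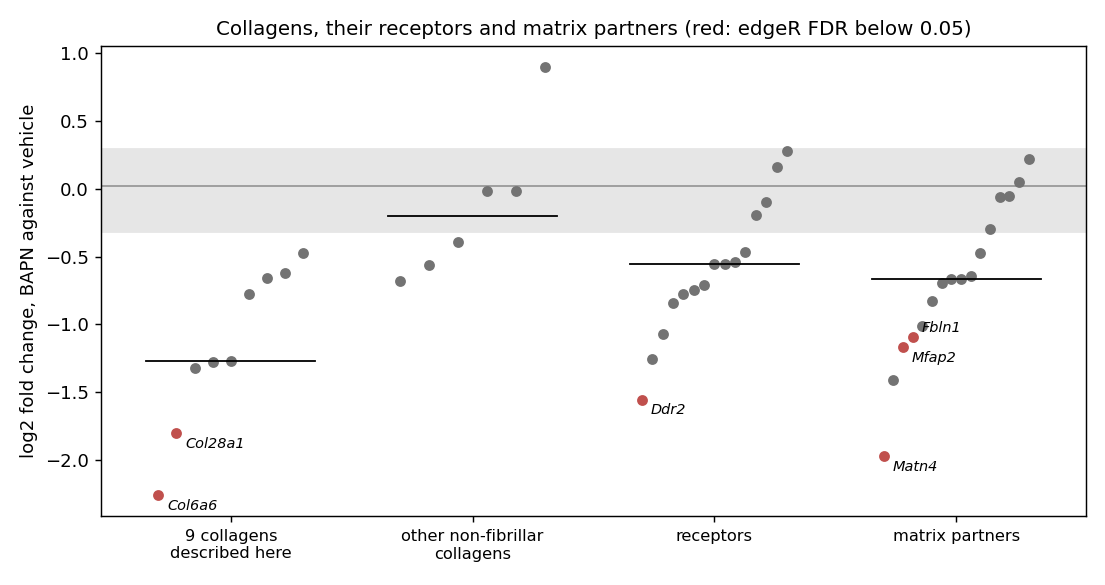
Log2 fold change of each tested gene in 4 lists, with red dots for edgeR FDR below 0.05, black lines for list medians, and a grey band from the 25th to the 75th percentile of all tested genes (-0.32 to 0.30). The medians were -1.27 for the 9 collagens, -0.20 for the other non-fibrillar collagens, -0.56 for receptors and -0.67 for matrix partners.

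Markers of the cell types in a vein were read in the same fit, in which 9.25% of all tested genes were called lower and 7.50% higher. Adventitial fibroblast markers summed to 1974 to 2354 CPM with BAPN and to 3814 to 5477 CPM with vehicle, and 4 of 8 tested were called lower. The gene with the most reads, the actin-severing Gsn, had a log2 fold change of -1.39 (edgeR FDR 0.0127). Smooth muscle markers summed to 1666 to 4246 CPM with BAPN and to 3331 to 6063 CPM with vehicle, and 6 of 8 were called lower, while the one with the most reads, Tagln, was not (-0.64, FDR 0.217), except without BAPN 2 (-1.08, FDR 0.0412). Endothelial markers summed to 453 to 577 CPM with BAPN and to 722 to 1468 CPM with vehicle, with 2 of 6 called lower and Tie1 at -0.32 (FDR 0.198). DESeq2 called 6 of 8 fibroblast, 6 of 8 smooth muscle and 4 of 6 endothelial markers lower, beside 15.1% of all tested genes. Log2 fold changes were below 0 for 7 of 8 fibroblast, 8 of 8 smooth muscle and 6 of 6 endothelial markers tested, the direction of all 9 collagens, and their part in the collagen values was not tested.

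Of 8 macrophage markers tested, 7 had log2 fold changes above 0. They summed to 27018 to 40649 CPM with BAPN and to 5348 to 22170 CPM with vehicle, mostly from the lysozyme gene Lyz2 (1.28, edgeR FDR 0.0722). edgeR called 1 of the 8 higher, beside 7.50% of all tested genes. DESeq2, which called 27.4% of all tested genes in either direction, called 3 of the 8, Lyz2 among them. Of 7 T cell markers, 6 had log2 fold changes above 0, with a list median of 1.33. edgeR called 2 higher, Cd2 (1.38, FDR 0.0138) and Cd8a (1.33, FDR 0.0281), and DESeq2 called 4 of the 7. The T cell marker sums of 369 to 455 and 300 to 509 CPM overlapped and were mostly Cd4, the 1 marker below 0 (-0.07, FDR 0.811). Of 6 adipocyte markers tested, 5 had log2 fold changes below 0, with a list median of -1.17. edgeR called 1 lower, the lipid droplet gene Plin1 (-2.13, FDR 0.0443), beside 9.25% of all tested genes. DESeq2 called 4 of the 6 lower, beside 15.1% of all tested genes. The groups overlapped for Plin1 (exact permutation p = 0.143). Vehicle 4, at 4.52 CPM, was below every BAPN rat (4.88 to 10.9 CPM). The adipocyte marker sums of 1112 to 2965 and 512 to 1767 CPM were mostly Fabp4, the 1 marker above 0 (0.70, FDR 0.269), which macrophages and endothelium also express.

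Markers of tissue from outside the vein wall were present too. Skeletal muscle markers summed to at most 30.2 CPM with BAPN and 71.2 CPM with vehicle. Of the 2 tested, Tnnt3 had a log2 fold change of 0.09 (FDR 0.830), and Acta1 one of -2.50 (edgeR FDR 0.0843) that only DESeq2 called (FDR 0.0441). Keratinocyte markers summed to at most 15.3 and 15.6 CPM (Dsp -0.72, FDR 0.218). Mammary epithelial markers reached 88.3 CPM in 1 BAPN rat and 90.5 CPM in 1 vehicle rat (Csn1s1 0.12, FDR 0.964). Ncam1, the nerve marker with the most reads over all rats, had a log2 fold change of -0.56 (edgeR FDR 0.205). No tested or untested marker was at 0 in all 8 libraries.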

How the data were processed

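Whole outflow veins of 8 rats were profiled by RNA sequencing, with 1 library per rat and groups, replicate numbers and sex taken from the sample labels. The authors prepared stranded, ribosomal RNA-depleted libraries and deposited raw counts of reads per rat Ensembl gene, without normalization. The submitters' processing notes name bcl2fastq 2.17, Trim Galore and STAR. The counting tool, its strand setting, the annotation and the genome build are not given in the sources used here, so how reads shared between similar or overlapping genes were counted is unknown.

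The filter of the study's methods, a base mean of 100 or more (DESeq2 1.42.0 size factors), was applied. edgeR 4.0.16 in R 4.3.3 was used with TMM scaling and a quasi-likelihood F test of the treatment term alone. Standard errors came from limma 3.58.1 (voom). Log2 CPM used a prior count of 2, and exact permutation tests went through 70 arrangements. The main edgeR fit was run on simulated counts with 200 of 11682 genes changed by 1.5 on the log2 scale. It recovered 167 of the 200 and made 7 false calls. The other fits and tests were not run on simulated counts. Libraries of a group differed by more than counting noise (chi-square per degree of freedom 68.6 to 321).

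The collagens and lists were chosen with earlier results of these data known. Named genes are all 9 collagens, all tested genes of the other collagen list, the called receptors and partners and those with the highest mean CPM, the tested marker of each cell type with the highest mean CPM, those at 0 throughout, and the nearest 3 genes in pattern to Col6a6 and to Col28a1. Ngfr, Cd2, Cd8a, Plin1, Acta1 and Col6a4 were named after their values were seen. Ratios with Col6a3 could not be computed, and Col6a1 replaced it after the data were seen. The treatment-by-sex term was also added then. Alternatives were DESeq2, other scalings and filters, a sex covariate, the females by themselves, a replicate block, libraries thinned to 1 total, and the omission of each rat.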

Additional observations from a re-analysis of the deposited data

Results flagged for a closer look

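In 84 groups of 4 rats (the named genes and the 5 ratios), 8 values, from 5 of the rats, stood farther from the other 3 of their group than Dixon's 95% limit allows, where chance alone gives about 1 in 20 groups. None concerned the 9 collagens or their ratios. Vehicle 4 was high for Col8a2 (279 CPM) and Matn4 (62.6 CPM). BAPN 1 was high for Fbln1 (203 CPM). BAPN 3 was low for Fn1 (8516 CPM), Dsp (2.8 CPM) and Gas1 (27 CPM). The milk protein gene Csn1s1 was high in BAPN 2 (55.2 CPM) and in Vehicle 2 (56.2 CPM), and both of these rats were female.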

How the results depend on the processing

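Of 162 values of the 9 collagens under alternatives, 151 kept their direction and their side of the threshold, 5 gained a call, 4 lost one and 2 changed direction, both for Col12a1. The number of the 9 called was 6 with DESeq2, 1 with the replicate block, 0 among females alone, and 1 (without Vehicle 1) to 3 (without Vehicle 2) with 1 rat left out. Over all tested genes, where 1957 (16.8%) were called, the number was 3202 with DESeq2, 930 with sex as a covariate, 556 with the replicate block, 89 among females alone, and 397 (without Vehicle 1) to 2215 (without Vehicle 2) with 1 rat left out. Omitting BAPN 3 gave 745, BAPN 4 906, Vehicle 4 963, Vehicle 3 1210 and BAPN 2 1224. Called receptors numbered 5 with DESeq2, 2 with total counts only, 0 with sex as a covariate and 0 among females alone, and 0 to 2 with 1 rat left out. Called matrix partners numbered 1 with sex as a covariate, 1 with the replicate block, 0 among females alone, and 0 to 4 with 1 rat left out. Called other collagens numbered 0 to 1, the 1 being Col16a1 without Vehicle 2 (FDR 0.0452 in edgeR). The cause of these shifts was not tested, and the fits among females alone or with 1 rat left out also held fewer rats.

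Same-numbered rats did not deviate together (correlation -0.26 to 0.27 over tested genes, 1 of 4 pairs above 0.1), and 3 of 8 rats correlated best with their own number. With the replicate block Col28a1 had a log2 fold change of -1.79 (FDR 0.0526) and Col6a6 one of -2.29 (FDR 0.0478) in edgeR, and Ddr2 (log2 fold change -1.62, FDR 0.0591), Ntrk2 (-1.45, FDR 0.0507), Matn4 (-1.69, FDR 0.143) and Mfap2 (-1.12, FDR 0.109) lost their calls.

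Some log2 fold changes changed direction. Among females alone they were 0.33 for Col12a1, 0.46 for Col8a2, 1.09 for Col20a1, -0.074 for Fabp4 and -0.36 for Csn1s1. With sex as a covariate they were 0.24 for Col20a1 and -1.06 for Csn1s1. With the replicate block they were 0.29 for Col20a1, 0.11 for Col17a1 and 0.0064 for Fn1. With filterByExpr they were 0.0026 for Col20a1 and 0.0031 for Col17a1, and without a filter 0.014 and 0.016. With 1 rat left out, values ran from -0.79 to 0.47 for Col12a1, -0.38 to 2.37 for Col6a5, -0.84 to 0.29 for Col8a2, -0.30 to 0.74 for Col20a1 and -0.28 to 0.19 for Col17a1. They ran from -0.25 to 0.11 for Fn1, -0.18 to 0.081 for Cd4, -0.071 to 0.27 for Tnnt3 and -1.95 to 3.12 for Csn1s1. With 1 rat left out, the differences of the 5 ratios ran from -0.07 to 0.02 (Col6a1 to Col6a2), -1.87 to -1.44 (Col6a6 to Col6a1), -1.50 to -0.996 (Col28a1 to Col6a1), 0.87 to 1.40 (Col12a1 to Col14a1) and -0.78 to -0.40 (Col15a1 to Col18a1). Among females alone the last was -1.02. Vehicle libraries were shallower than BAPN libraries, and with all libraries thinned to 1 total the same 2 collagens were called.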
